A study of Macaca fascicularis with 6 samples.

Results

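The genes described here encode the proteins that remodel lipoproteins in plasma: the lipid transfer proteins PLTP and CETP, the cholesterol-esterifying enzyme LCAT, the lipases LIPC, LIPG and LPL, the lipase inhibitors ANGPTL4 and ANGPTL8, and GPIHBP1, which anchors LPL on capillaries. Every probe set whose only annotated gene symbol was one of these 9 was taken, whatever its values, which gave 11 probe sets for 8 genes of the 19775 genes named in this way on the array. LIPC was not analysed here. The 8 genes were read in liver of 6 cynomolgus macaques (Macaca fascicularis), each on its own array designed against human transcripts. In the vehicle group (Liv_Veh) 3 animals had received vehicle, and in the ligand group (Liv_GW) the other 3 had received an LXR ligand, a compound that binds the liver X receptor. The identity of the ligand, its dose, the length of treatment and the age of the animals were not given in the sources used here.

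Lipoproteins carry triglyceride and cholesteryl ester through blood, and the proteins encoded by these genes decide how that cargo is moved between particles and released from them. LPL breaks down triglyceride at the vessel wall, and in adult liver its transcript is usually low, while the liver is a main source of LCAT, CETP, ANGPTL8 and ANGPTL4. LXR is a nuclear receptor for oxidised cholesterol, and PLTP, CETP and LPL are textbook targets of it.

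Values are MAS5 signals, an intensity per probe set in arbitrary units, and differences are ligand minus vehicle on log2(signal + 16), so the change of a dim probe set is understated. Median signals of the arrays were between 111 and 139. On the first principal component of the tested probe sets ligand array 1 stood apart, at -89.9 against 0.772 to 36.7 for the other 5 arrays. Values without it are therefore given beside the difference of each tested probe set of the 8 genes. For tested genes named from the partner and marker lists they are given where leaving it out moved the difference by over 1.5 times. They are not given for dim probe sets or for genes named as genomic neighbours. Hepatocyte markers had a summed signal of 656670 to 770212 with vehicle and 706618 to 752860 with the ligand, and all 11 of them passed the filter on dim probe sets, with the smallest p for TF, transferrin, and HP, haptoglobin, at log2 differences of -0.71 ± 0.32 and -0.54 ± 0.26 (SE) and neither called; HP was at -0.28 without ligand array 1. With 3 animals in each group, the number of arrays limits the precision of every value.

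Whether these 8 genes differed between the groups was tested on 8 of the 11 probe sets, those with a mean signal at or above the median of all probe sets (129). In limma's test with Benjamini-Hochberg adjustment over all probe sets tested, 0 of the 8 were called, and 0 of 27307 probe sets were called on the whole array (0%). At an unadjusted p under 0.05, PLTP and CETP were higher, 2 of the 8, where 3.24% of all tested probe sets were higher and 2.33% lower at that p. Of the 7 genes with a tested probe set, 5 had a higher and 2 a lower ligand mean on their brightest probe set, where 50.3% of all tested probe sets were higher and 49.7% lower. Their median log2 difference was 0.39, beside 0.0027 over all 13349 genes tested.

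**Figure D1:**
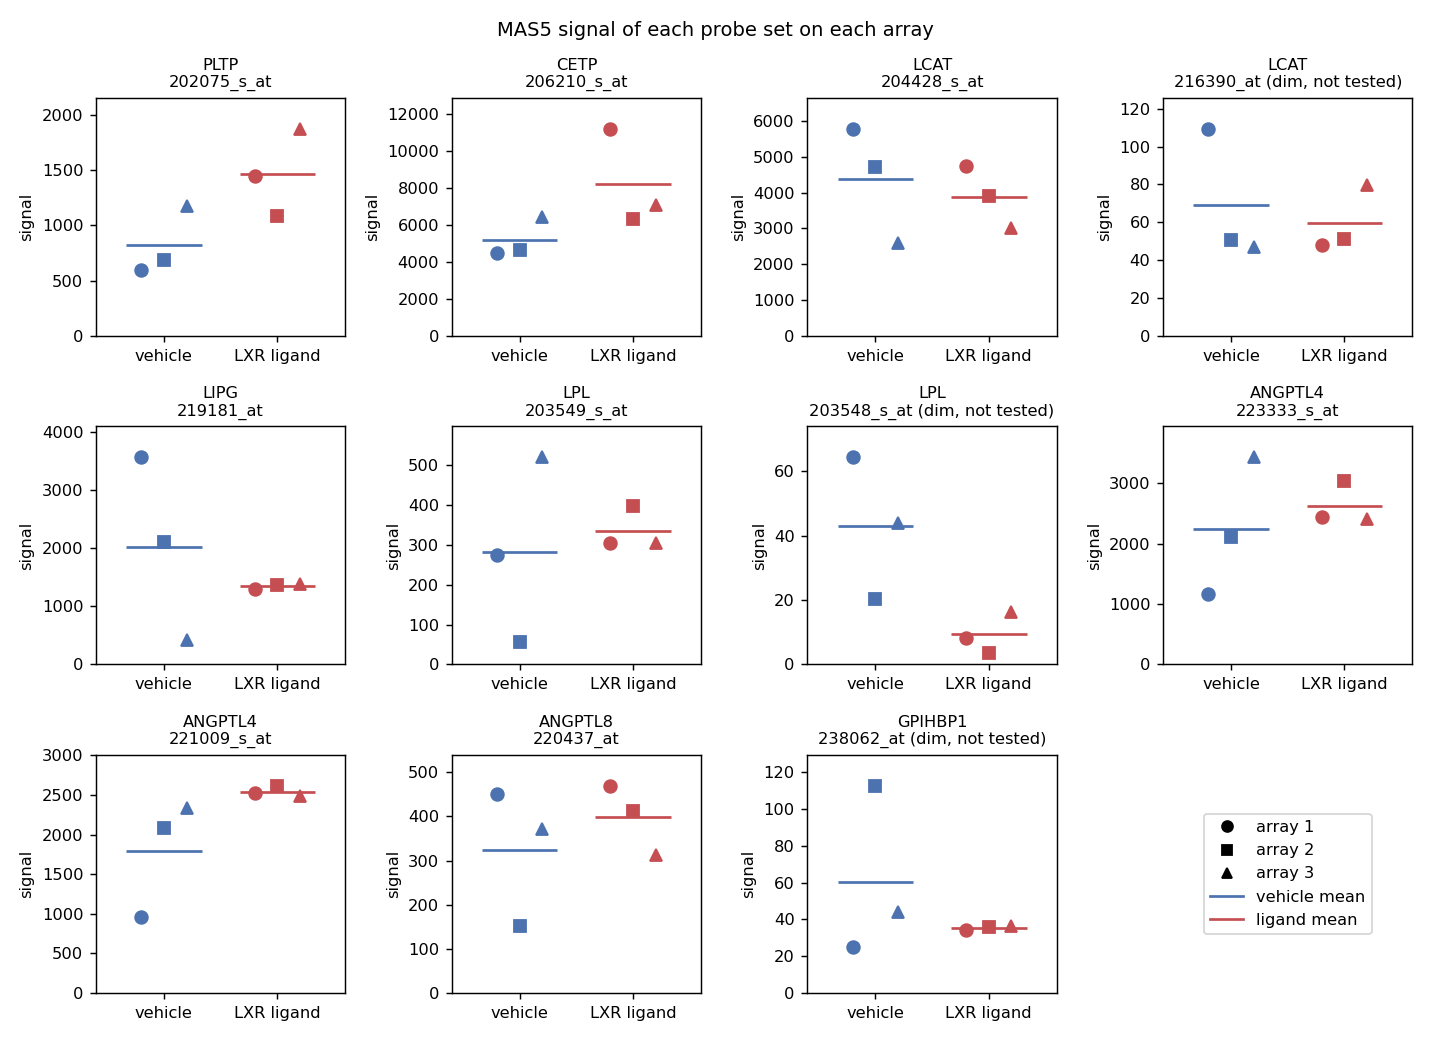
Signal (vertical axis, arbitrary units, from 0) of each of the 11 probe sets on each array; blue marks vehicle, red the LXR ligand, the marker shape the array number and lines the group means. PLTP and CETP have higher means with the ligand with overlapping groups, and the 3 vehicle arrays of LIPG, LPL and ANGPTL4 lie far apart while their ligand arrays lie close together.

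PLTP, the phospholipid transfer protein that moves phospholipid between lipoproteins and enlarges HDL, had the largest difference of the 7 genes on their brightest probe sets. Its signals were 598, 691 and 1180 in vehicle animals 1 to 3, against 1444, 1090 and 1872 in ligand animals 1 to 3 (probe set 202075_s_at). Ligand array 2 lay below vehicle array 3, so the groups overlapped. The mean signal was 823 ± 312 (SD, n = 3) with vehicle and 1469 ± 392 (SD, n = 3) with the ligand, and the log2 difference was 0.85 ± 0.31 (SE), a 1.80-fold higher signal with a 95% interval of 0.16 to 1.54. With limma's adjusted p = 0.838 and unadjusted p = 0.0200 it was not called. The difference stayed above 0 with any single array left out, between 0.66 (vehicle array 1 left out) and 1.14 (vehicle array 3 left out), and was 0.85 without ligand array 1.

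CETP, which exchanges cholesteryl ester in HDL for triglyceride in larger lipoproteins, had a bright probe set, with a mean signal in the 97.4th percentile of the array. Its signals were 4486, 4648 and 6453 in vehicle animals 1 to 3, against 11206, 6353 and 7112 in ligand animals 1 to 3 (probe set 206210_s_at). Ligand array 1 was far above the others, and ligand array 2 lay just under vehicle array 3. The mean was 5196 ± 1092 with vehicle, against 8223 ± 2610 with the ligand (± SD, n = 3 each), a 1.55-fold difference, or 0.64 ± 0.25 (SE) on the log2 scale with a 95% interval of 0.084 to 1.19. Limma gave adjusted p = 0.873 and unadjusted p = 0.0280, so CETP was not called either. The array that stood apart carried much of this value: the log2 difference was 0.39 without ligand array 1 and up to 0.80 without vehicle array 3.

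LCAT, the plasma enzyme that esterifies cholesterol on HDL, differed by less than its error. Signals of its brighter probe set (204428_s_at) were 5772, 4714 and 2604 in vehicle animals 1 to 3, against 4744, 3902 and 3001 in ligand animals 1 to 3, with all 3 ligand arrays inside the vehicle range. The means were 4364 ± 1613 and 3883 ± 871 (SD, n = 3 per group), and the log2 difference was -0.12 ± 0.30 (SE), with a 95% interval of -0.78 to 0.55 and limma's adjusted p = 0.976. That difference was -0.45 without vehicle array 3 and 0.12 without vehicle array 1, so its direction rested on single animals; without ligand array 1 it was -0.27. The other LCAT probe set (216390_at) was too dim to be tested, with 109, 50.4 and 47.2 in the vehicle animals, against 48.2, 51.0 and 79.5 in the ligand animals.

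LIPG, endothelial lipase, a phospholipase that acts on HDL, varied more between vehicle animals than most probe sets on the array. Its signals were 3556, 2096 and 416 in vehicle animals 1 to 3, an 8.54-fold range, against 1303, 1359 and 1378 in ligand animals 1 to 3, a 1.06-fold range (probe set 219181_at). All ligand arrays fell between vehicle arrays 2 and 3. The means were 2023 ± 1571 and 1347 ± 38.9 (SD, n = 3 per group), the log2 difference -0.12 ± 0.61 (SE), the 95% interval -1.47 to 1.22, and limma's adjusted p = 0.986. Without vehicle array 3 the log2 difference was -1.01, and without vehicle array 1 it was 0.51, so no direction can be given for LIPG, while without ligand array 1 it was -0.099.

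LPL, the lipoprotein lipase of muscle, fat and macrophages, gave opposite pictures on its 2 probe sets. The brighter (203549_s_at) read 274, 56.0 and 520 in vehicle animals 1 to 3, against 304, 399 and 304 in ligand animals 1 to 3, with every ligand array between vehicle arrays 1 and 3. Its means were 283 ± 232 and 336 ± 54.8 (SD, n = 3 per group), and its log2 difference of 0.64 ± 0.62 (SE) had a 95% interval of -0.73 to 2.02 and limma's adjusted p = 0.937. The value rested on vehicle array 2, the low one: without it the log2 difference was -0.18, and without vehicle array 3 it was 1.27; without ligand array 1 it was 0.70.

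The dimmer LPL probe set (203548_s_at) went the other way, at 64.4, 20.4 and 44.0 with vehicle and 8.27, 3.44 and 16.3 with the ligand. All 3 ligand arrays lay below all 3 vehicle arrays, as they did for 4.37% of the dim probe sets that were not tested. In a fit with no filter on dim probe sets, its log2 difference was -1.18 ± 0.45 (SE) with limma's adjusted p = 0.924. Across the 6 arrays the log2 values of the 2 LPL probe sets had Pearson's r = 0.018. The mean of both probe sets on the log2 scale differed by -0.27 ± 0.47 (SE), against 0.64 on the brighter alone, so these arrays gave LPL no settled direction. Detection calls were not used here, and a probe set this dim cannot be told from an absent transcript.

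GPIHBP1, which carries LPL across capillary endothelium and holds it there, was too dim to be tested. Its only probe set (238062_at) read 24.9, 113 and 44.0 in vehicle animals 1 to 3, against 34.3, 36.0 and 36.4 in ligand animals 1 to 3. The ligand arrays lay inside the vehicle range, and the log2 difference in the fit with no filter was -0.40 ± 0.58 (SE).

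ANGPTL4, a secreted inhibitor of LPL whose gene is switched on by fatty acid sensing PPARs, had 2 bright probe sets that followed each other across arrays, with Pearson's r = 0.906 over 6 arrays. The brighter (223333_s_at) read 1165, 2111 and 3424 in vehicle animals 1 to 3, against 2439, 3029 and 2402 in ligand animals 1 to 3. The second (221009_s_at) read 956, 2084 and 2333 in the vehicle animals, against 2528, 2615 and 2485 in the ligand animals. Vehicle array 1 was the lowest on both, and the groups overlapped on the brighter but not on the second. It was the only 1 of the 8 tested probe sets whose ligand animals all lay above every vehicle animal, a pattern that 5.99% of tested probe sets on the array showed (4.96% had it the other way).

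The differences of the 2 ANGPTL4 probe sets were 0.35 ± 0.34 and 0.60 ± 0.31 (SE) on the log2 scale, with 95% intervals of -0.40 to 1.11 and -0.093 to 1.30. Limma's adjusted p was 0.937 for the brighter and 0.880 for the second, so neither was called. Both values leaned on vehicle array 1: without it the log2 differences were -0.044 and 0.20. Without ligand array 1 they were 0.40 and 0.61.

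ANGPTL8, a liver and fat protein that takes part in inhibiting LPL after feeding, read 451, 151 and 371 in vehicle animals 1 to 3, against 469, 413 and 312 in ligand animals 1 to 3 (probe set 220437_at). Vehicle array 2 was low and the remaining arrays overlapped. The means were 324 ± 155 and 398 ± 79.7 (SD, n = 3 per group), with a log2 difference of 0.39 ± 0.41 (SE), a 95% interval of -0.51 to 1.29 and limma's adjusted p = 0.941. Without vehicle array 2 the log2 difference was -0.058, and without ligand array 1 it was 0.27.

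**Figure D2:**
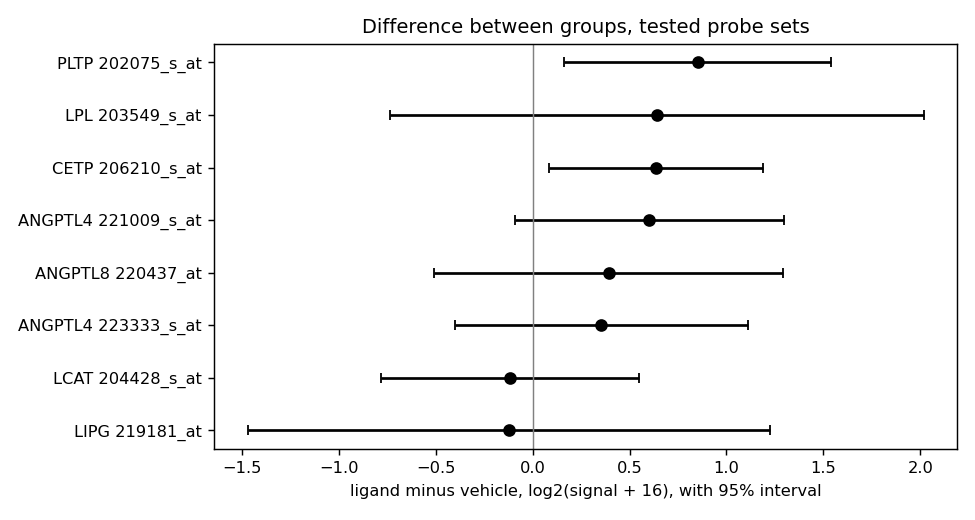
Difference between groups (horizontal axis, ligand minus vehicle on log2(signal + 16)) of the 8 tested probe sets; points are limma's estimates and bars their 95% intervals from 3 arrays per group. The intervals of PLTP and CETP lie above 0, those of the other 6 include 0, and all 8 overlap one another.

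In order of the log2 difference on the brightest probe set, PLTP came first, then LPL, CETP, ANGPTL8, ANGPTL4, LCAT and LIPG. The 95% intervals of all 7 overlapped, and differences between genes in this order were not tested. The intervals were widest for LPL and LIPG, the genes whose vehicle animals lay furthest apart. For PLTP and CETP the intervals run up to 1.54 and 1.19, that is, they include differences above 2-fold, and for LCAT, LIPG and the ANGPTLs they include changes in either direction.

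**Figure D3:**
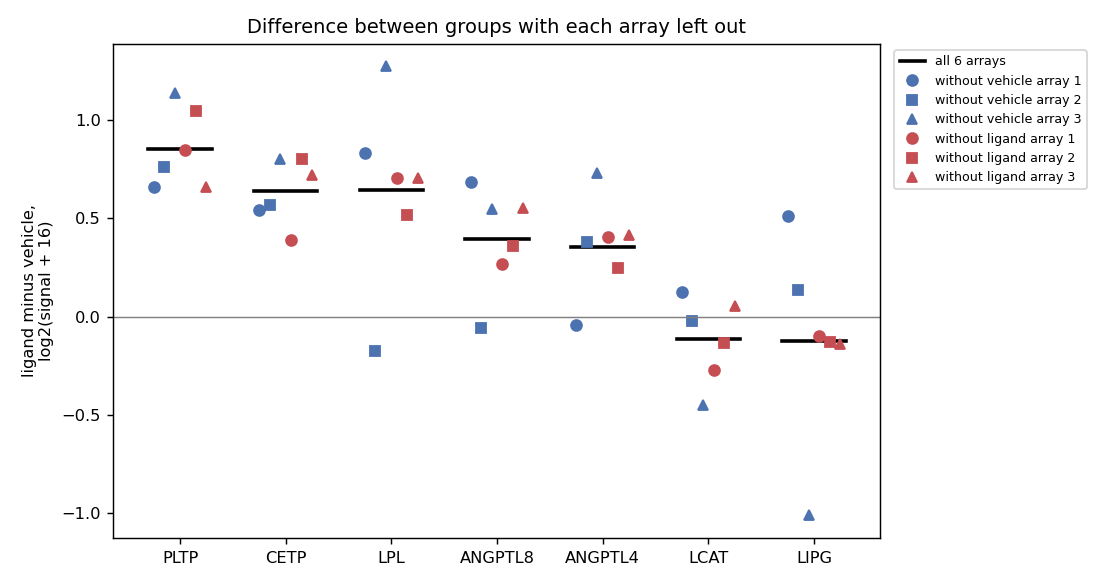
Difference between groups (vertical axis, ligand minus vehicle on log2(signal + 16)) of the brightest probe set of 7 genes; black lines use all 6 arrays and each marker leaves out the array named in the key. PLTP and CETP stay above 0 throughout, whereas leaving out a single vehicle array moves LPL, ANGPTL8, ANGPTL4, LCAT and LIPG across 0.

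The spread between animals was larger with vehicle than with the ligand for 7 of the 8 tested probe sets (87.5%), all but CETP, while over all tested probe sets the share was 49.3%. On the log2 scale the median SD of the 8 was 0.73 with vehicle and 0.25 with the ligand, beside 0.36 in each group over all tested probe sets. LIPG had a vehicle SD of 1.59, in the 98.9th percentile, and a ligand SD of 0.041, in the 1.35th percentile. LPL had 1.48 and 0.22 on its brighter probe set, and the second ANGPTL4 probe set 0.69 and 0.037. The unequal spread is a description of 3 animals in each group and was given no test.

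Across the 6 arrays some of these genes moved together, given here as Pearson's r of log2 values over 21 pairs of genes that share the same 6 arrays. LCAT and LIPG had r = 0.861, both highest on vehicle array 1 and lowest on vehicle array 3. LPL and ANGPTL8, an enzyme and its inhibitor, had r = 0.857, both lowest on vehicle array 2. ANGPTL4 and LIPG had r = -0.875, the lowest of the 21, and PLTP and CETP had r = 0.794. The genes most like PLTP among 13348 others were GSN (r = 0.989), SCUBE3 (r = 0.986) and GABRB1 (r = 0.984). For CETP they were GIT2 (r = 0.994), VPS26B (r = 0.990) and FASN (r = 0.984), and for LCAT GTF2A2, CEP350 and MRPS18C (r = 0.983 to 0.994). SIAE, GALT and SLC4A4 were most like LIPG (r = 0.971 to 0.995), DOK7, HCLS1 and MIR1915HG most like LPL (r = 0.991 to 0.997), LINC01134, GAL and KITLG most like ANGPTL4 (r = 0.979 to 0.985), and HACD4, MAPKAPK3 and P3H3 most like ANGPTL8 (r = 0.987 to 0.988). All these r values include ligand array 1, which was the highest of the 6 arrays for both CETP and FASN, and none was taken without it. With so many genes and 6 arrays, values this near 1 are a description only.

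The higher means of PLTP and CETP stood beside higher macrophage markers. Both PLTP and CETP are known to be made by macrophages as well as hepatocytes. In a piece of liver more cells of a type and more RNA per cell cannot be told apart. The summed signal of 11 macrophage and Kupffer cell markers was 5806 to 8735 with vehicle and 12916 to 13967 with the ligand, without overlap. All 9 tested markers of that list had higher means, none was called, and MARCO, a scavenger receptor, and C1QA, a complement chain, had the smallest p, with log2 differences of 1.23 ± 0.22 and 1.62 ± 0.34 (SE). The remaining members of the list, CLEC4F and TIMD4, were too dim to be tested and had lower means. CLEC4F read 99.8, 102 and 153 with vehicle, and 109, 6.64 and 5.09 with the ligand, and in the fit with no filter their log2 differences were -1.76 ± 0.73 and -0.55 ± 0.66 (SE). Without ligand array 1 all 9 tested markers were still higher, with a median of 0.76. The part of these cells in the higher PLTP and CETP was not tested. Within the ligand group the order differed, since ligand array 2 had the highest macrophage sum and the lowest PLTP and CETP.

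The log2 ratio of 3' to 5' signal of the GAPDH control probe sets, which grows as RNA is degraded, was 0.991, 1.32 and 1.70 in vehicle animals 1 to 3, against 1.38, 1.17 and 2.05 in ligand animals 1 to 3. Within each group the arrays stood in the same order by this ratio as by the PLTP signal. By the same ratio of the ACTB controls, 2.15, 2.50 and 3.06 in the vehicle animals, ligand arrays 1 and 2 changed places, at 2.62 and 2.65, and ligand array 3 was again the highest. LCAT and LIPG stood in the reverse order among the vehicle arrays. The part of RNA quality in these values was not tested.

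**Figure D4:**
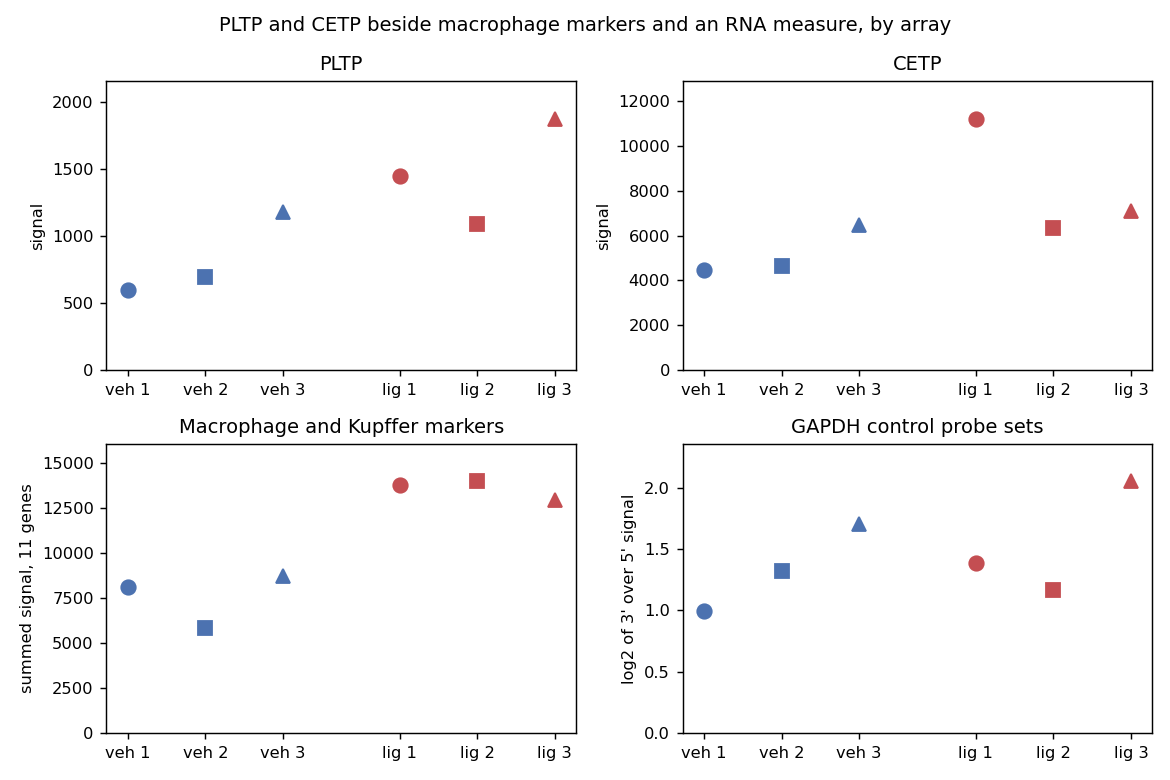
Signal of PLTP and CETP, summed signal of 11 macrophage and Kupffer cell markers, and log2 ratio of 3' to 5' GAPDH control signal (vertical axes from 0) on vehicle arrays 1 to 3 (blue) and ligand arrays 1 to 3 (red). The macrophage sum separates the groups, and the GAPDH ratio orders the arrays within a group as PLTP does.

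Other cell types were read in the same way. Endothelial cells are a source of LIPG and GPIHBP1, and the summed signal of their 11 markers overlapped between groups, at 10951 to 13325 with vehicle and 12521 to 15667 with the ligand. The overlap came from VWF: the sum of the other 10, taken after these values were seen, was 8657 to 11791 with vehicle and 12365 to 15290 with the ligand, without overlap. The part of endothelial cells in the LIPG and GPIHBP1 values was not tested. In that list 9 markers had higher and 2 lower means, with VWF, a clotting factor, at -3.39 ± 0.47 and LYVE1, a sinusoidal receptor, at 1.02 ± 0.34 (SE). Stellate cell and fibroblast markers summed to 20414 to 31967 with vehicle and 38163 to 52730 with the ligand, without overlap, with 8 of 10 higher, COL3A1, a collagen chain, at 1.12 ± 0.29 and DCN, a matrix proteoglycan, at 0.62 ± 0.26 (SE). Red cell markers summed to 1328 to 11414 with vehicle and 727 to 1108 with the ligand, without overlap, and vehicle array 1 held the highest sum. HBB, beta globin, had -1.71 ± 0.76 and SLC4A1, the red cell anion exchanger, -0.77 ± 0.60 (SE). HBD and ALAS2 were too dim to be tested. HBD read 186, 173 and 154 in vehicle animals 1 to 3, against 19.1, 17.6 and 33.9 in ligand animals 1 to 3. In the fit with no filter HBD had -2.26 ± 0.55 and ALAS2 0.13 ± 0.60 (SE).

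Fat and muscle are rich in LPL, and their markers were read in the same way. Of 7 adipocyte markers 4 were tested, FABP4, CIDEA, CIDEC and PLIN4, and 3 were too dim, ADIPOQ, LEP and PLIN1. ADIPOQ, the defining hormone of fat cells, read 9.51, 45.1 and 54.9 with vehicle and 4.46, 6.66 and 5.28 with the ligand. Its ligand arrays all lay below its vehicle arrays, as for 4.37% of the dim probe sets not tested. In the fit with no filter ADIPOQ had -1.16 ± 0.44, LEP -0.43 ± 0.57 and PLIN1 0.48 ± 0.56 (SE). The 7 markers summed to 1534 to 1691 with vehicle and 1667 to 1822 with the ligand. FABP4, a fatty acid carrier, and CIDEA, a droplet protein, had log2 differences of 0.36 ± 0.31 and 0.25 ± 0.65 (SE), and CIDEA was too dim to be tested without ligand array 1. Of 6 striated muscle markers, 4 were too dim to be tested, and the list summed to 534 to 926 with vehicle and 416 to 573 with the ligand. DES, the muscle filament desmin, and MB, myoglobin, had -0.97 ± 0.68 and -0.52 ± 0.43 (SE), with DES at -0.54 without ligand array 1. The T and NK cell markers (7 with a probe set) summed to 1223 to 1763 and 994 to 1646, and the 5 cholangiocyte markers to 836 to 1341 and 631 to 1626, overlapping in each case. Of the former PRF1, perforin, and CD2 had -0.37 ± 0.36 and 0.12 ± 0.34, and of the latter EPCAM, an adhesion molecule, and KRT7, a keratin, 0.89 ± 0.54 and -0.64 ± 0.45 (SE). Without ligand array 1, PRF1 was at -0.66 and CD2 at -0.019.

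Partners of these proteins were taken from lists of 79 genes, of which 64 had a tested probe set. None of the 64 was called in limma's test (0% of all probe sets were). At an unadjusted p under 0.05, 7 were higher and 1 lower, where 3.7% of all 13349 tested genes were higher and 2.42% lower, the lower one being LPIN1, a phosphatidate phosphatase, at -0.90 ± 0.26 (SE). Some genes stand in more than 1 list. All ligand arrays lay above all vehicle arrays for 9 of the 64 and below them for 1, against 829 and 695 of the 13349 tested genes. Over all 64, 42 had higher and 22 lower ligand means, and the median log2 difference was 0.13, while 50.3% of all tested genes had higher means. Without ligand array 1, 36 of the 64 had higher means, with a median of 0.026. The counts and medians given below for single lists use all arrays, ligand array 1 included.

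Cofactors and inhibitors of the lipases are the apolipoproteins that decide how fast LPL works on a particle. Of 6 tested, 5 were higher and 1 lower, none called, with a median log2 difference of 0.27. APOC2, the activator of LPL, had 0.44 ± 0.22 (SE), from signals of 5012, 6747 and 3846 with vehicle and 6805, 7238 and 6552 with the ligand. APOC1, an inhibitor of lipases and of CETP, had 0.52 ± 0.33, and APOE, the ligand of remnant receptors, 0.75 ± 0.60 (SE). APOE rested on 1 animal: ligand array 1 read 128135, against 17365 to 22463 on the other 5, and without it the log2 difference was -0.19. Among the genes of lipase maturation and shedding 7 of 9 tested were higher, with a median of 0.10. CALR, an ER chaperone, had 0.26 ± 0.17, PCSK5, a proprotein convertase that can cleave endothelial lipase, 0.55 ± 0.41, and LMF1, the factor that folds lipases, -0.27 ± 0.25 (SE). Without ligand array 1, CALR was at 0.17 and PCSK5 at 0.86. LMF2, SDC1 and FURIN, higher with all arrays, were then at -0.098, -0.0082 and -0.078. ANGPTL6 was the single other angiopoietin-like gene tested, at 0.21 ± 0.22 (SE).

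In the list of HDL formation and uptake, where PLTP, CETP and LCAT act, 6 of 11 tested genes were higher and 5 lower, with a median log2 difference of 0.046. The higher end held ABCG1 and ABCA1, the cholesterol exporters, at 1.31 ± 0.25 and 0.77 ± 0.27 (SE), and APOD, a small lipid carrier on HDL, at 0.79 ± 0.43 (SE), each with no overlap between groups. In the list of VLDL assembly and remnant uptake 3 of 8 were higher and 5 lower, with a median of -0.027. There MYLIP, the ubiquitin ligase of LDL receptors, had 1.36 ± 0.32, MTTP, which loads lipid onto apolipoprotein B, -0.60 ± 0.61, and LRPAP1, a receptor chaperone, -0.27 ± 0.30 (SE), or -0.079 without ligand array 1.

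Lipases that work inside the cell were mostly higher, 7 of 9 tested, with a median log2 difference of 0.28. LIPA, the lysosomal acid lipase, read 2000, 1453 and 1863 with vehicle and 2401, 4189 and 2176 with the ligand, and MGLL, monoglyceride lipase, read 3793, 5123 and 3971 with vehicle and 9784, 5222 and 5453 with the ligand. Neither gene's groups overlapped, at 0.67 ± 0.27 and 0.62 ± 0.26 (SE), and neither was called. Without ligand array 1 the MGLL difference was 0.32. ABHD5, the coactivator of adipose triglyceride lipase, had -0.56 ± 0.28 (SE).

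The PPAR targets, which share a known regulator with ANGPTL4, had 7 of 10 higher and 3 lower, with a median of 0.29. CYP4A11, a fatty acid hydroxylase, had -0.54 ± 0.26, FGF21, a fasting hormone, 0.68 ± 0.35, and FABP1, the liver fatty acid carrier, 0.86 ± 0.46 (SE). Of 16 other LXR targets 12 were higher and 4 lower, with a median of 0.60, and SREBF1, the lipogenic transcription factor, was furthest at 2.57 ± 0.39 (SE, limma's adjusted p = 0.370). The log2 differences of PLTP and CETP, 0.85 ± 0.31 and 0.64 ± 0.25 (SE), lay above that median, CETP by less than its SE. Without ligand array 1 PLTP and CETP were at 0.85 and 0.39, whereas the median of 0.60 includes that array and was not calculated without it. How either compares with the other LXR targets was not tested. Without ligand array 2, SREBF1 passed with limma's adjusted p = 0.0453, the only partner gene called with any array left out.

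**Figure D5:**
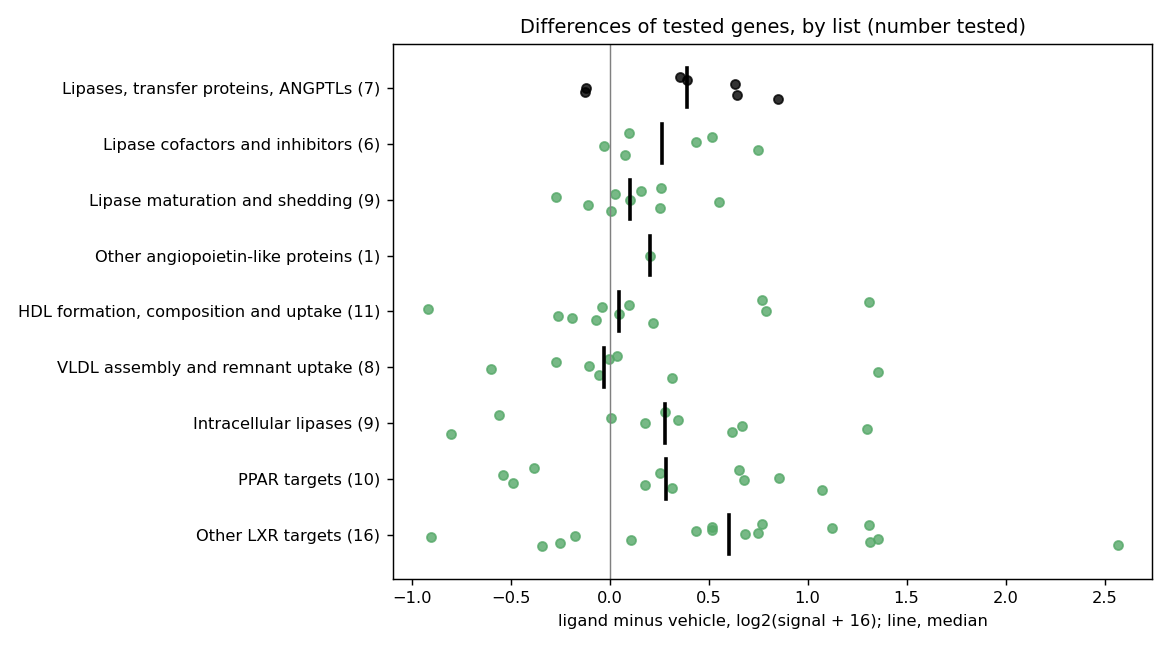
Difference between groups (horizontal axis, ligand minus vehicle on log2(signal + 16)) of each tested gene, by list, with the number tested in brackets; points are genes on their brightest probe set and black lines medians. The 7 lipase, transfer protein and ANGPTL genes run from -0.12 to 0.85, inside the range of the other LXR targets, whose highest gene is SREBF1 at 2.57.

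The protein-coding genes next to these genes in the macaque annotation (assembly T2T-MFA8v1.1, used for names and neighbours only) were set beside them. CTSA, a lysosomal protease that overlaps PLTP there, and PCIF1 on its other side had log2 differences of -0.053 ± 0.21 and -0.047 ± 0.34 (SE). HERPUD1 and NLRC5, on either side of CETP, had 0.35 ± 0.18 and -0.53 ± 0.85 (SE). DOCK6, a regulator of small GTPases that overlaps ANGPTL8 there, had 0.82 ± 0.37 and TSPAN16, next to ANGPTL8, -1.39 ± 0.79 (SE). KANK3 and RAB11B, beside ANGPTL4, had 0.74 ± 0.33 and 0.12 ± 0.40, and PSMB10 and SLC12A4, beside LCAT, 0.35 ± 0.28 and -0.30 ± 0.37 (SE). A single neighbour was tested for LIPG, LPL and GPIHBP1: ACAA2 had 0.16 ± 0.24, INTS10 0.12 ± 0.27 and LY6H -1.17 ± 0.44 (SE). On their brightest probe sets the neighbours thus went both ways, and none was called in limma's test with all arrays. Another probe set of ACAA2 was called when vehicle array 2 was left out. Its log2 difference was then -3.69, with limma's adjusted p = 0.00382, opposite in direction to the brightest probe set with all arrays. ACAA2 was therefore given no settled direction. The differences between the neighbours and the genes they flank were not tested.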

How the data were processed

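Liver RNA was hybridised to Affymetrix arrays, 1 animal on each, per the labels. The deposited intensity values are linear and come from MAS5, per the submitters' processing notes, with its version and scaling target not given in the sources used here. The 2% trimmed mean was 500.1 on each array. Human probes read macaque transcripts, so sequence differences can lower a signal. Of 54675 probe sets, 41091 had 1 gene symbol, and no gene was named from the others.

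Without the 62 controls, the 27307 probe sets whose mean signal reached the median of all means were tested, two-sided, on log2(signal + 16) in limma 3.58.1 (lmFit, then eBayes with trend; R 4.3.3), with Benjamini-Hochberg adjustment and a threshold of 0.05. The brightest probe set stood for a gene. The code was tested on simulated data, and figures used Python 3.11.15 and matplotlib 3.10.9.

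The 9 genes, the lists and the tests were chosen with earlier results of these data known. The text names all probe sets of the 9 genes, by smallest p up to 3 genes of each of 8 partner lists and 2 of each of 9 marker lists, and for each of the 9 genes that was tested the 3 genes most correlated with it. CLEC4F, TIMD4, ADIPOQ, LEP, PLIN1, HBD, ALAS2, LPIN1, LMF2, SDC1, FURIN and the neighbouring genes were added after values were seen. Alternatives changed the pseudocount (1, 64), the scaling (quantile, median), the filter (none, 75th percentile), the trend, robust estimation, the threshold (0.10), the probe sets used and the arrays left out, or added the replicate number as a block.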

Additional observations from a re-analysis of the deposited data

How the results depend on the processing

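No probe set of the 8 genes was called by limma under any alternative run, and the differences of PLTP, CETP and the second ANGPTL4 probe set kept their direction in all of them. Pseudocount and scaling reversed no difference. The filter, the trend and robust estimation cannot change a log2 difference, only its SE and p, so they could not reverse one. With the filter at the 75th percentile only 6 probe sets of these genes were tested, and LPL and ANGPTL8 were left out. The LPL difference turned to -0.27 on the mean of its probe sets. With single arrays left out, the log2 differences ran from 0.66 to 1.14 for PLTP, 0.39 to 0.80 for CETP, -0.45 to 0.12 for LCAT, -1.01 to 0.51 for LIPG, -0.18 to 1.27 for LPL, -0.044 to 0.73 for ANGPTL4, 0.20 to 0.84 for its second probe set and -0.058 to 0.68 for ANGPTL8. LCAT was 0.12 and 0.056 without vehicle array 1 and ligand array 3, and LIPG 0.51 and 0.13 without vehicle arrays 1 and 2. The number of partner genes called was 0 to 1, with SREBF1 called without ligand array 2; the cause was not tested. The labels number the animals 1 to 3 in both groups. Deviations of same-numbered arrays correlated at 0.040, -0.031 and 0.069, against -0.076 to 0.034 for the other pairs of arrays. All these values were small, though 0.069 and 0.040 were the highest of them. The labels do not say that equal numbers are pairs, and the main test did not take them as pairs. With the replicate number as a block 0 probe sets were called, and limma's smallest adjusted p was 0.158, against 0.318 without the block. In this balanced design the block cannot move a log2 difference. It lowered the SE of all 8 tested probe sets of these genes. The SE went from 0.31 to 0.25 for PLTP, 0.25 to 0.24 for CETP, 0.30 to 0.20 for LCAT and 0.61 to 0.50 for LIPG. Dim signals limit GPIHBP1 and the second probe sets of LPL and LCAT, for which a low value cannot be told from none.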
